A study of Mus musculus with 18 samples.

Results

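Single-base changes that were found in 1 leukemia only and that were not C>T make up the 421 calls described here, out of 2653 calls in the deposited exome table. They were chosen as rows not marked as a known database variant, with a site listed in exactly 1 leukemia, and with a single reference base replaced by another in any way except C>T or its complement G>A. The same private, unmarked set held 637 C>T changes, which served as the comparison within each leukemia. The leukemias came from 17 mice on the C57Bl6-NIH background carrying both the NP23 and the NHD13 transgene, which join the nucleoporin Nup98 to Phf23 and to Hoxd13, and the labels name the disease thymic AML (acute myeloid leukemia). Thymus was sequenced in 11 mice and bone marrow in 6, with 1 sample per mouse. The promoter of the transgenes and the ages of the mice are not given in the sources used here. Every call was made against the tail DNA of 1 wild-type C57Bl6-NIH mouse, so variants inherited in the transgenic colony and absent from that mouse stand beside acquired ones. Mouse labels ending in NN (9 leukemias, 5 thymus and 4 bone marrow) and labels without that ending, called plain here (8 leukemias, 6 thymus and 2 bone marrow), were kept as a possible batch, and what NN marks is not given in the sources used here. These are DNA data, so the labelled tissues could not be checked against marker expression.

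A substitution is named by the pyrimidine of the changed base pair, so that C>A includes G>T on the opposite strand, and besides C>T there are 5 classes: C>A, C>G, T>A, T>C and T>G. C>T is the usual outcome of cytosine deamination, whereas C>A is the usual outcome of oxidised guanine, which pairs with adenine when copied. Guanine oxidised in the test tube after the DNA has been sheared leaves a mark, because the altered base then appears almost entirely in read pairs of 1 orientation. The caller reports that orientation as a share of the alternative reads, where 1 means all reads lie in the orientation of oxidised guanine and 0.5 means an even split.

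Reference sequence was at hand only near gene starts, where 10 of the 412 sites looked up lay (7 of them C>A). The sequences below, from RefSeq on GRCm38.p6, show what such changes look like in context for 3 classes. Each holds 21 bases on the strand of the gene, and the capital marks the reference base that was changed.
Ghrl, chr6:113719416-113719436, minus strand: caagaccatgCtgtcttcagg
Tnxb, chr17:34670501-34670521, plus strand: gtttttccccCccctcccccc
BB123696, chr13:52757231-52757251, minus strand: aagctcttttGtgagggaggc
Klri1, chr6:129717105-129717125, minus strand: aaaatgcttcAcagtaaacgc
Ankle1, chr8:71406031-71406051, plus strand: gggacatggcCgatactgcat

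In Ghrl, which encodes the appetite hormone ghrelin, the C>A change of M31 fell on the first base of the codon after the start codon (L2M, 16 of 52 reads). The Tnxb change of M54 lay in a run of C at position -24 from the start of the gene and was carried by 4 of 23 reads. In M19 the changed base before BB123696 was a G on the gene's strand, at position -36 (4 of 87 reads). The Klri1 change of M54 is of the T>C class and was annotated as H3R in this killer cell lectin-like receptor gene (4 of 176 reads). The C>G change in Ankle1, a DNA endonuclease gene, was synonymous (A2A) and rested on 3 of 6 reads in M24. Over all 421 changes the median depth was 108 reads, with 6 as the lowest and 7629 as the highest.

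C>A and T>C were the most frequent classes at nearly equal counts. C>A made up 144 changes (34.2%, interval 29.7% to 39%) and T>C 145 (34.4%, interval 29.9% to 39.2%). T>A followed with 56 changes (13.3%, interval 10.2% to 16.9%), and C>G and T>G had 38 each (9.03%, interval 6.47% to 12.2%). All intervals here are exact 95% Clopper-Pearson intervals. They cover counting error only, because changes in 1 leukemia share their library and any PCR copies left in the data count as separate reads. C>A was present in all 17 leukemias, T>C in 15, T>A in 14, T>G in 12 and C>G in 10.

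The leukemias differed widely in number. M58 had 6 such changes, the median leukemia 12, and M31 102. M18 (56), M19 (49), M59 (39) and M22 (37) came next, and the other 12 leukemias had between 6 and 21. C>A counts ran from 1 in M55 over a median of 5 to 29 in M59. T>C counts ran from 0 in M58 and M61 over a median of 5 to 47 in M31. The 2 leukemias with the highest counts of C>A and T>C were thus different mice, of different tissues and series. Pooled percentages depend on both, and so does the order of C>A and T>C. Without M31 the shares were 37.9% C>A and 30.7% T>C, and without M59 they were 30.1% and 36.6%.

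**Figure D1:**
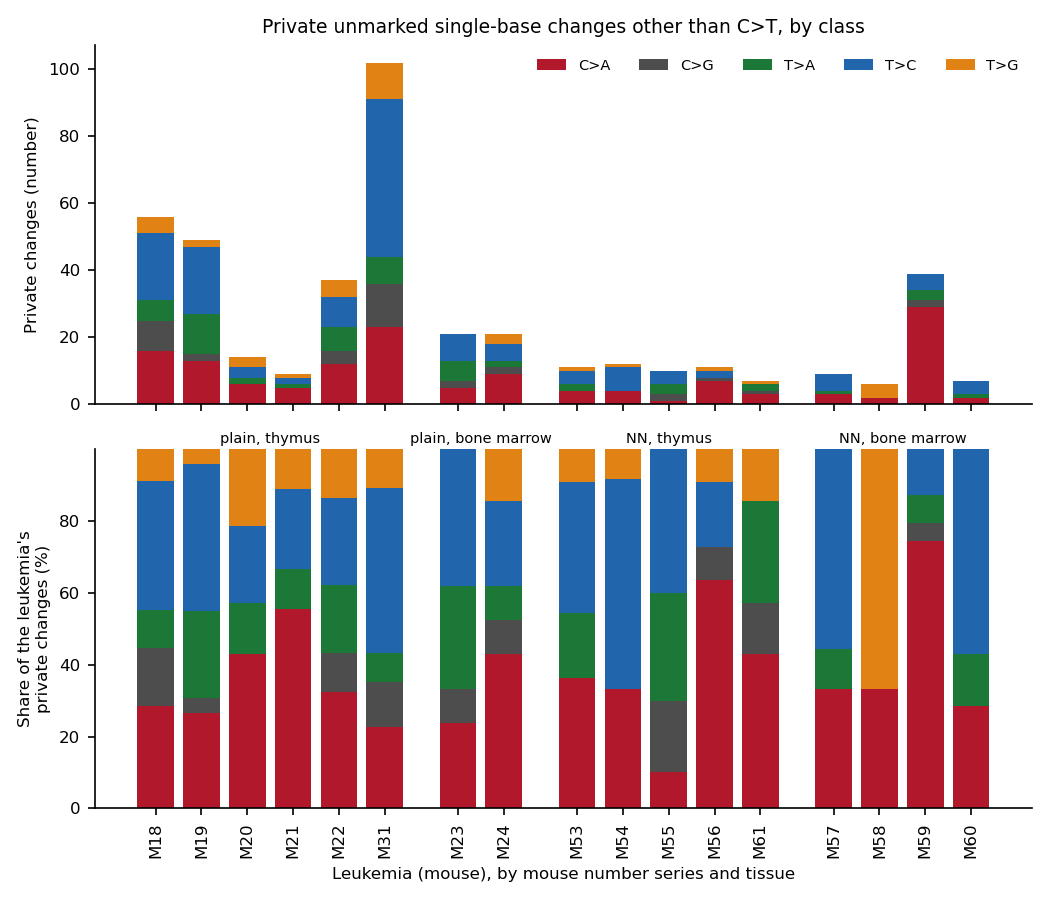
Number (top) and share in percent (bottom) of the private unmarked single-base changes of each class in each leukemia, grouped by mouse number series and tissue. M31 has the tallest bar with 102 changes, 47 of them T>C, and M59 has 29 C>A among 39.

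The difference in number between thymus and bone marrow was within the spread between leukemias. Thymus leukemias had 28.9 ± 29.9 changes (SD, n = 11; lowest 7, median 12, highest 102) and bone marrow leukemias 17.2 ± 12.7 (SD, n = 6; lowest 6, median 15, highest 39), a difference of 11.7 (p = 0.417, exact two-sided permutation test over 12376 assignments). The ranges overlapped, and the medians were ordered against the means. Without M31 the difference was 4.43 (exact permutation p = 0.631). The NN leukemias alone gave -5.05 (exact permutation p = 0.833). The plain leukemias alone gave 23.5 (exact permutation p = 0.429, where 28 assignments can give no p below 0.0357). Among the 5 class shares, C>A averaged 35.9% ± 15 of a leukemia's changes in thymus (SD, n = 11) and 39.4% ± 18.3 in bone marrow (SD, n = 6). T>C averaged 31.2% ± 15.9 and 31.2% ± 23.2. No class share passed the test between tissues (Benjamini-Hochberg adjusted p = 0.999 for each of the 5, exact permutation test), nor between the series (adjusted p 0.875 to 0.966).

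The series did differ in number. NN leukemias had 12.4 ± 10.2 changes (SD, n = 9; lowest 6, median 10, highest 39) and plain leukemias 38.6 ± 30.6 (SD, n = 8; lowest 9, median 29, highest 102), a difference of -26.2 (p = 0.0152, exact two-sided permutation test over 24310 assignments). The ranges overlapped. The call was lost in other settings: with an allele fraction of at least 0.10 it was -10.9 (exact permutation p = 0.0915), and without M18, M19 and M22 it was -21.0 (exact permutation p = 0.102).

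The share of private single-base changes that were not C>T separated the series completely, a comparison made after its values were seen. In NN leukemias 50% to 83% of the private changes were not C>T (median 70%, mean 64.8% ± 12.4, SD, n = 9). In plain leukemias the share was 23.1% to 49.5% (median 30.7%, mean 32.3% ± 8.18, SD, n = 8). The difference of 32.5 percentage points had p = 4.1e-05 in the exact two-sided permutation test, the smallest p that its 24310 assignments can give. The highest plain value (M31, 49.5%) and the lowest NN values (M55 and M58, 50%) lay side by side. The counts behind the shares moved most in C>T, with 3 to 10 private C>T changes in NN leukemias and 24 to 112 in plain ones. The difference shrank as calls of low allele fraction were left out, to 15.5 points with a fraction of at least 0.05 (exact permutation p = 0.0236) and to 4.72 points with at least 0.10 (exact permutation p = 0.591, 6 NN and 7 plain leukemias with enough calls). Tissue gave no such split: 48.0% ± 19.3 in thymus (SD, n = 11) against 52.2% ± 21.8 in bone marrow (SD, n = 6), exact permutation p = 0.679. Median depth at the changes was 61 to 151.5 reads per leukemia in the NN series and 33 to 141.5 in the plain series, and its part in the result was not tested.

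**Figure D2:**
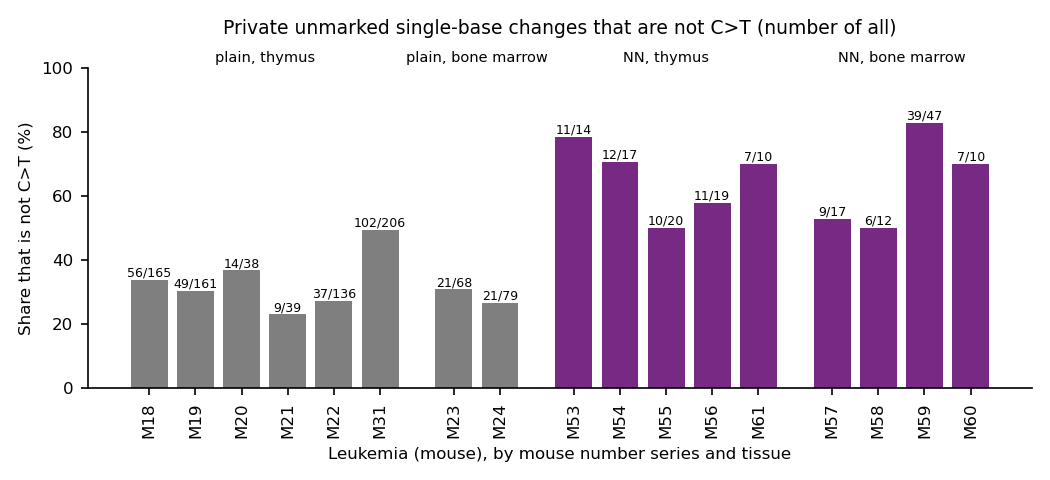
Share in percent of each leukemia's private unmarked single-base changes that were not C>T, with the number of such changes over all above each bar, by series and tissue. All NN leukemias (purple) lie between 50% and 83% and all plain leukemias (grey) between 23.1% and 49.5%.

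C>A changes showed no excess of reads in the orientation of oxidised guanine. Over the 144 C>A changes the orientation share averaged 0.477 with a SD of 0.258 between changes and a median of 0.5. It was above 0.5 in 58 changes, below in 60 and equal to it in 26. The extreme values were 1 in 8 changes and 0 in 16, and most changes had few reads, with at most 5 alternative reads in 103 of 144. Summed over the class, 607 of 1259 alternative reads (48.2%, interval 45.4% to 51.0%) had the orientation, against 50.5% of the reference reads at the same sites. The other 4 classes together had 1401 of 2904 alternative reads in it (48.2%, interval 46.4% to 50.1%), and private C>T 2118 of 4202 (50.4%, interval 48.9% to 51.9%). Read sums weigh changes of high allele fraction most, and M31 alone supplied 415 of the 1259 C>A reads. Below an allele fraction of 0.10, 209 of 455 C>A reads had the orientation (45.9%, interval 41.3% to 50.6%). The reference reads at those sites had 50.4%, and the other 4 classes below 0.10 had 368 of 793 (46.4%). Only calls that passed the caller's filters were available.

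Per leukemia the mean orientation share of C>A was 0.466 ± 0.0921 and that of the other 4 classes 0.491 ± 0.0925 (SD, n = 14 leukemias with at least 3 changes of each kind). C>A was higher in 6 leukemias and lower in 8, and the difference of -0.0251 did not pass (p = 0.461, exact two-sided sign-flip permutation test over 16384 flips). Plain leukemias alone gave -0.0718 (exact permutation p = 0.0938, n = 8) and NN leukemias 0.0372 (exact permutation p = 0.469, n = 6). Leaving out 1 leukemia moved the difference between -0.0426 (without M54) and -0.00928 (without M20), and with at least 6 changes of each kind it was -0.0722 (exact permutation p = 0.172, n = 7). The lowest mean for C>A was 0.322 in M24, from 9 changes. The highest was 0.9 in M55, which had 1 C>A change only and stayed out of the test.

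**Figure D3:**
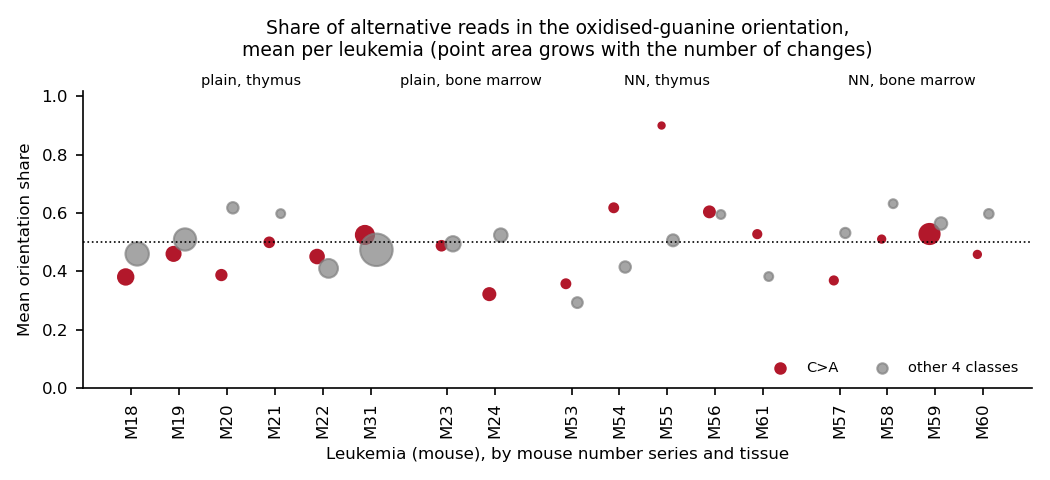
Mean share of alternative reads in the oxidised-guanine orientation per leukemia for C>A (red) and the other 4 classes (grey), with point area growing with the number of changes and a dotted line at 0.5. Red and grey points lie on both sides of the line, and the red point at 0.9 is the single C>A change of M55.

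C>A was unevenly written between the strands of the reference genome, although not between read orientations. Of the 144 changes, 115 were C>A on the reference strand and 29 were G>T (79.9% C>A, interval 72.4% to 86.1%). C>A outnumbered G>T in 15 leukemias, equalled it in M53 (2 and 2) and was outnumbered in M57 (1 and 2). M59 had 28 against 1 and M31 13 against 10. Without these leukemias the C>A share was of similar size, at 75.7% without M59, 84.3% without M31 and 80.4% without both. It was noticed after the values were seen and is given as a description.

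Within transcripts the imbalance followed the reference strand rather than the strand of the gene. The 130 changes there were 112 C>A and 18 G>T (86.2%, interval 79.0% to 91.6%), against 115 and 29 for all 144. Outside transcripts, where few of the 144 lay, G>T was thus the more frequent form. The spread of those few over leukemias is not given here. Genes on the plus strand had 55 C>A and 3 G>T changes (94.8% C>A, interval 85.6% to 98.9%). Genes on the minus strand had 57 and 15 (79.2%, interval 68% to 87.8%), again written on the reference strand. On the strand of the transcript the same 130 changes were therefore 70 C>A and 60 G>T (53.8%, interval 44.9% to 62.6%). Changes below an allele fraction of 0.10 were 90 and 18 (83.3%), and those at or above it 25 and 11 (69.4%, interval 51.9% to 83.7%). C>A was written on the reference strand in 74.5% of cases in thymus and 90% in bone marrow, and in 87.3% in the NN series and 75.3% in the plain series. M59, with 28 against 1, counts in both the bone marrow and the NN values and raises them.

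The comparison sets were closer to even. Private C>T changes were 330 C>T and 307 G>A on the reference strand (51.8%, interval 47.8% to 55.7%). T>C changes were 78 and 67 with T as the reference base first (53.8%), T>G 22 and 16 (57.9%), C>G 23 and 15 (60.5%) and T>A 35 and 21 (62.5%). The 40 C>A calls marked as known variants, all from 1 leukemia, were 26 and 14 (65%, interval 48.3% to 79.4%). The interval of private C>A lay wholly above those of private C>T and of T>C (45.3% to 62.1%). It overlapped those of T>A (48.5% to 75.1%), C>G (43.4% to 76.0%), T>G (40.8% to 73.7%) and marked C>A. These intervals pool changes over leukemias, and the classes were not tested against each other.

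**Figure D4:**
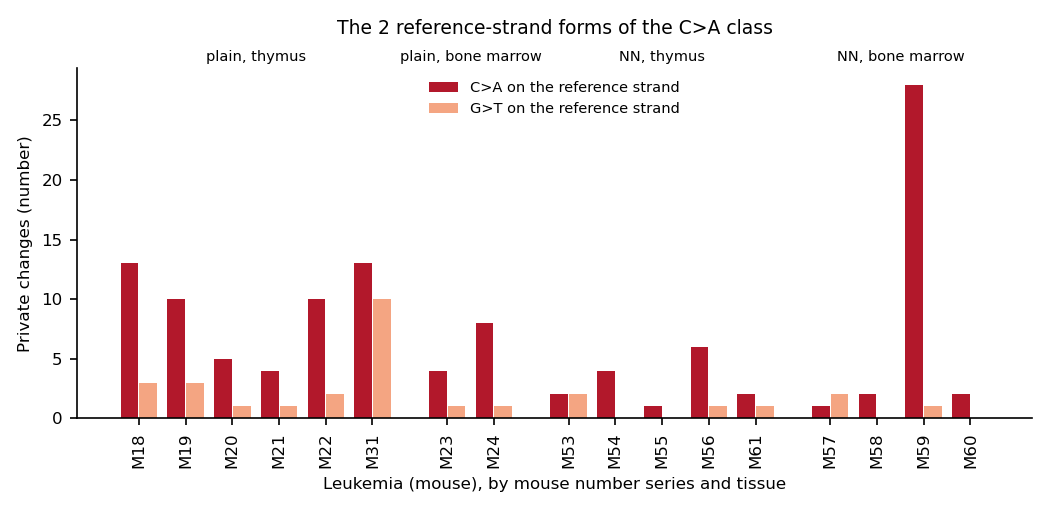
Number of private changes of the C>A class written as C>A (dark) and as G>T (light) on the reference strand, in each leukemia by series and tissue. The dark bar is taller in 15 of 17 leukemias, with 28 against 1 in M59.

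M59, a bone marrow leukemia of the NN series, carried the highest count of C>A. Its 29 C>A changes were 74.4% of its 39 changes (interval 57.9% to 87%) and lay on 18 chromosomes. All 29 had an allele fraction below 0.10, from 0.00864 to 0.077 with a median of 0.027, on 3 to 10 alternative reads each. The caller's tumor score, a log odds that the variant is real, was below 7 for 20 of the 29 (69%). It was below 7 for 63 of the 108 C>A changes under a fraction of 0.10 (58.3%), these 29 included. Over all C>A it was 67 of 144 (46.5%). Of the 132 alternative C>A reads of M59, 68 had the oxidised-guanine orientation (51.5%, interval 42.7% to 60.3%). Among the coding ones, 18 altered a protein and 3 were synonymous.

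Most changes were present in a small share of reads. The allele fraction, the caller's estimate of the share of DNA carrying the change, had a median of 0.045 over the 421 changes, and 138 (32.8%) reached 0.10. In bulk tissue a low fraction from few leukemic cells and one from a subset of the leukemic cells cannot be told apart. Of the 283 changes below 0.10, 237 rested on at most 5 alternative reads and 146 (51.6%) had a tumor score below 7. Whether some of them are sequencing or calling errors was not tested. C>A had the lowest median (0.0375, with 36 of 144 at or above 0.10), followed by T>A (0.041, 15 of 56), C>G (0.052, 13 of 38), T>C (0.059, 59 of 145) and T>G (0.0745, 15 of 38). M31 alone supplied 84 of the 138 changes at or above 0.10. Without M31, 54 of 319 changes reached 0.10 (16.9%), and the medians of C>A and T>C drew together at 0.032 and 0.038.

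Per leukemia the median fraction of these changes was within the spread of that of private C>T. It was 0.0790 ± 0.0811 against 0.0648 ± 0.0492 (SD, n = 14), higher in 8 leukemias and lower in 6 (p = 0.414, exact two-sided sign-flip permutation test). Within the plain series it was higher than for C>T in 7 of 8 leukemias, by 0.0385 on average (exact permutation p = 0.0156). In NN leukemias it was lower in 5 of 6, with a mean difference of -0.0183 (exact permutation p = 0.375). M21 weighs most: without it the plain difference was 0.0193 (exact permutation p = 0.0312) and that over all leukemias 0.00192, and without M31 the latter was 0.00842. Whether the series differ in this was not tested. Thymus and bone marrow leukemias had medians of 0.0845 ± 0.0868 (SD, n = 11; lowest 0.0305, median 0.055, highest 0.289 in M31) and 0.0536 ± 0.0428 (SD, n = 6; lowest 0.027, median 0.0375, highest 0.14 in M58). These overlapped (exact permutation p = 0.455).

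**Figure D5:**
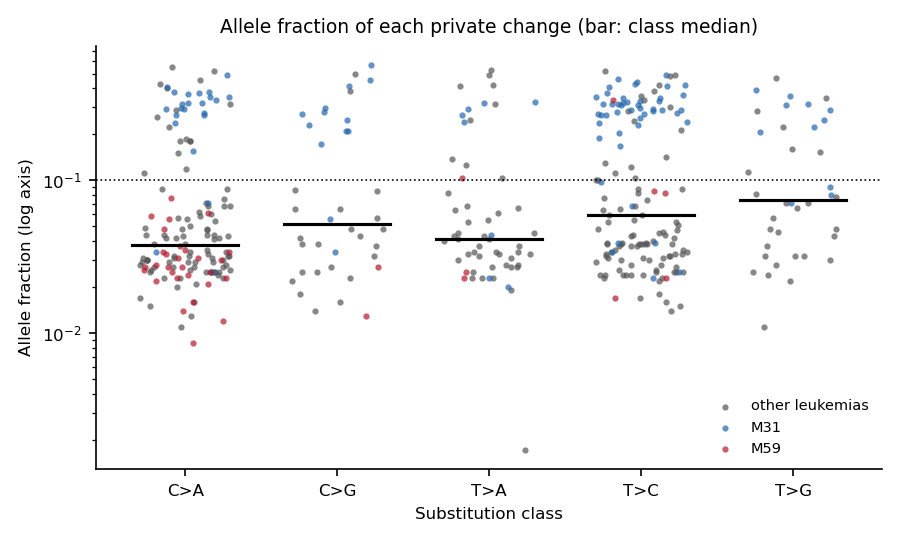
Allele fraction of each of the 421 changes by class on a log axis, with M31 in blue, M59 in red, the class median as a black bar and a dotted line at 0.10. Blue points gather above the line in every class, and all red C>A points lie below it.

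M31, a plain thymus leukemia, held most of its changes in clusters of known variants. Of its 102 changes, 67 lay inside tracts, defined as stretches with 10 or more database-marked calls of 1 leukemia and gaps of at most 5 Mb, on chromosomes 1, 7 and 19. Inside the tracts T>C made up 58.2% and C>A 16.4%, and the median allele fraction was 0.311. Outside, T>C made up 22.9% and C>A 34.3% of 35 changes, with a median fraction of 0.231. Only 11 of 45 coding changes inside the tracts altered a protein (24.4%, interval 12.9% to 39.5%), against 11 of 15 outside (73.3%, interval 44.9% to 92.2%). In the database-marked calls of the whole table T>C made up 66.9% of those that were not C>T, and 110 of 369 coding calls altered a protein (29.8%). The tracts are defined by marked calls and hold many of them, with 261 in 1 tract of chromosome 1 and 140 in 1 of chromosome 19. These values are thus not an independent comparison. In M57, 1 further change lay in a tract on chromosome 6.

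Missense changes were the most frequent consequence. There were 164 missense changes (39%), 77 synonymous (18.3%), 71 intronic (16.9%), 38 between genes, 24 in untranslated regions, 22 beside a gene, 7 stop gains, 6 in the splice region of an intron, 5 at essential splice sites and 7 in noncoding or unannotated sequence. Of 253 coding changes, 176 altered a protein (69.6%, interval 63.5% to 75.2%), against 334 of 459 for private C>T (72.8%, interval 68.4% to 76.8%). By class the altering share was 60.2% for T>C, 70.8% for T>G, 73.9% for C>A, 75.9% for T>A and 79.2% for C>G. Without M31 the T>C share was 79.6%.

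Paired by leukemia, the altering share was 75.9% ± 16.7 for these changes and 68.5% ± 12.6 for private C>T (SD, n = 11), a difference of 7.42 points (p = 0.118, exact two-sided sign-flip permutation test; higher in 9, lower in 2). The result turned on M31: without it the difference was 10.02 points, and with changes in tracts left out 9.08 points, both with exact permutation p = 0.0234. It was smaller in other settings, at 2.80 points with neighbouring calls counted once (exact permutation p = 0.473) and 0.517 points with at least 10 coding calls of each kind (exact permutation p = 0.969), and it was -11.4 points with an allele fraction of at least 0.05 (exact permutation p = 0.25, n = 6).

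With limits of 0.10 on the allele fraction and 20 reads on depth, 39 protein-altering changes were left, 14 of them in M31 and 25 spread over 13 other leukemias. Of the 25, T>C gave 11, C>A 5, T>A 4, T>G 4 and C>G 1. In M61 the highest was V132E in Tigit (chromosome 16, position 43659536, exon 3 of 4), an inhibitory receptor of T and NK cells, in 23 of 43 reads (53.5%, interval 37.7% to 68.8%). The same leukemia had L267H in Utp3, which acts in making the small ribosomal subunit, in 32 of 80 reads (40%). It also had R415S in Gm14347 on the X chromosome in 24 of 62 reads, with 1 alternative read among 370 in the wild-type tail. M61 thus held 3 of the 15 genes with the highest fractions although it had only 7 changes in all.

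Of the other leukemias, 10 held 1 of the 15 genes each. In M19, Q450R of Syde2 was carried by 66 of 134 reads (49.3%, interval 40.5% to 58%). M22 had I45T in the olfactory receptor Olfr1153 in 24 of 48 reads. In M54, R91L of the thioesterase Ppt2 was carried by 45 of 99 reads (45.5%). M20 had L1050I in Mapkbp1, a scaffold of JNK signalling, in 26 of 66 reads. Allele fractions of these 4 ran from 0.426 to 0.488.

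Further down, allele fractions lay between 0.258 and 0.357. M21 had D951G in Zswim4 (25 of 72 reads) and M58 had S1217R in Dnah7b, an axonemal dynein (26 of 82). M60 had L301P in the olfactory receptor Olfr1310 (7 of 23) and M24 had S166R in Tfb2m, a mitochondrial transcription factor (18 of 59). M53 had both V474A in Rsc1a1, a regulator of sodium-glucose transport (28 of 82, with 1 alternative read in the tail), and T1476N in the matrix proteoglycan gene Vcan (37 of 132). None of these 6 genes had a change of this set in another leukemia.

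Gab1 was the only gene of 16 lists of leukemia and DNA repair genes (194 genes in all) with a protein-altering change. Gab1 is a docking adaptor downstream of receptor tyrosine kinases, and M59 carried D685G (chromosome 8, position 80766453, exon 11 of 11) in 44 of 125 reads (35.2%, interval 26.9% to 44.2%). The Gab1 change is of the T>C class and had an allele fraction of 0.337, whereas the C>A changes of the same leukemia ended at 0.077. Other genes of the lists with a change were Nsd1 and U2af2. Nsd1 is a histone H3 lysine methyltransferase gene, and M57 carried a C>A change 4 bases before an exon (chromosome 13, position 55295983, intron 15 of 22) in 29 of 105 reads (27.6%, interval 19.3% to 37.2%). Its tumor score was low for that number of reads, at 15.65, against 93.4 for the Vcan change in M53 (37 of 132 reads). The reason was not tested. The annotation places the Nsd1 change in a splice region, and its effect on splicing was not measured. U2af2, a splicing factor gene, had an intronic T>A change in M24 (4 of 90 reads). The 6 lists of DNA repair genes and cytidine deaminases held 0 of the 421 changes, among them the list of oxidised guanine repair genes. The 66 genes of these 6 lists are few. Over the 21900 protein-coding genes of the RefSeq table, 339 had a change (1.55%) and 168 a protein-altering one (0.767%), against 1.55% and 0.515% of the 194 listed genes. The listed genes were thus hit at the share of all genes, and an empty set of 66 genes is near that background.

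In M31 the 5 highest protein-altering changes outside tracts were all C>A. They were R276S in the peroxisome gene Pex16 (31 of 81 reads), D275Y in the chromatin gene Morf4l2 (7 of 21), V215F in the ring finger gene Rnf148 (22 of 71), L2M in Ghrl (16 of 52) and D670Y in Dse, a dermatan sulfate epimerase (11 of 55). Their allele fractions ran from 0.239 to 0.373. Of the 12 C>A changes of M31 outside tracts, 9 reached 0.10, against 0 of 29 in M59.

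No stop gain or essential splice site change reached an allele fraction of 0.10. There were 7 stop gains, 5 of them C>A, and 5 essential splice changes, 2 of them C>A. The highest was a splice donor change in Gk, the glycerol kinase gene, in M21 (chromosome X, position 85743713, 4 of 42 reads, allele fraction 0.088). Among the others were E356* in Ewsr1, an RNA-binding protein gene, in M24 (allele fraction 0.023), Y424* in the membrane skeleton gene Epb41l2 in M19 (0.056) and G1663* in the calcium channel gene Cacna1d in M59 (0.027). The Ewsr1 change rested on 3 of 172 reads, with 1 alternative read among 113 in the wild-type tail. These 4 genes were named after their values were seen.

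Of 351 genes with a change, 27 had at least 2 changes, most of them within 1 leukemia. Changes in at least 2 leukemias were found in 6 genes: Smg6, Plekha6, Nr3c2, Krt33b, Ttn and Cdh23. Smg6 alone had protein-altering changes in both of its leukemias. It encodes an endonuclease of nonsense-mediated mRNA decay, and besides the pair in M55 described next, M22 had S1233R in 6 of 295 reads (2.03%, interval 0.75% to 4.37%). In Plekha6, M31 had a synonymous change (L1157L) and M18 a change in the 3' untranslated region. Nr3c2, the mineralocorticoid receptor gene, had a synonymous change in M22 and an intronic one in M23, and Krt33b, a hair keratin gene, a synonymous change in M23 and an intronic one in M24. Both Ttn changes were intronic. Cdh23, a cadherin gene, had T3118S in M22 (3 of 169 reads) and an intronic change in M19.

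Some changes came as neighbouring pairs. In all, 28 of 421 changes (6.65%, interval 4.46% to 9.47%) lay within 10 bases of another change of the set in the same leukemia, forming 14 pairs, 9 of them 1 base apart and 5 of them 2 bases apart. The pairs came from 7 leukemias, and M18 held 6 of them. No C>T change (0 of 637) had another private C>T change that close, with an interval that ends at 0.577%. With neighbours of any class counted for both kinds, as was done after the values were seen, 32 of the 421 changes had a neighbour (7.6%, interval 5.26% to 10.6%) and 4 of the 637 C>T changes (0.628%, interval 0.171% to 1.6%). As every leukemia had a C>T share of 0, a test over leukemias would only restate that 7 hold a pair, and no p is given. Of all 421 changes, those in pairs included, 25 (5.94%) lay within 10 bases of an insertion or deletion. The like share of private C>T is not given here. Within 10 bases of a private C>T change lay 4 of the 421.

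Most pairs were even in read number. In 12 of the 14 pairs both changes had equal numbers of alternative reads, and 11 pairs were below an allele fraction of 0.05. The highest pair was in Smg6 in M55, at positions 75142868 and 75142869 of chromosome 11 in exon 15 of 19. Both changes had 47 of 106 reads (44.3%, interval 34.7% to 54.3%), and the annotation gave them separately as I1215V and I1215K. If both lie on 1 molecule, the codon would read I1215E. The phase of the reads was not analysed here.

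Other pairs rested on fewer reads. In M21 a pair in Ceacam5, a cell adhesion gene, was carried by 2 of 11 reads (E573A with E573D, together E573A). In M20 a pair in the 5' untranslated region of Tmem59l was carried by 2 of 12. The next pairs had allele fractions of 0.048 or less: Kat7, a histone acetyltransferase gene, in M22 (3 of 68 reads), Mettl8, an RNA methyltransferase gene, in M19 (4 of 146), Hmgxb3 in M19 (5 of 201), and Rnf217 and Tmem223 in M18 (4 and 3 reads). A further pair was between genes in M31, with 5 of 219 reads. The Hmgxb3 pair was annotated as A186D and A186S and would read A186Y on 1 molecule. C>A took part in 8 of the 14 pairs and T>C in 8.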

How the data were processed

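Exome capture of 17 leukemias and 1 wild-type tail used a SureSelectXT kit for mouse exons, per the labels' protocols. BWA 0.7.17, bcl2fastq 2.17.1.14 and GATK (version not given in the sources used here) stand in the submitters' processing notes, with the builds mm10 and GRCm38. MuTect2 is named in the labels. Allele depths and read orientations are raw read counts, as deposited by the authors. The allele fraction and the orientation share are fractions deposited by the authors, as their caller estimated them. The tumor log odds is a score deposited by the authors. Every row carried the caller's PASS flag and the mark for bait regions. The rows analysed here may be a part of the full table, and 22 columns of per-sample values were not used.

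From these, changes were classed on the pyrimidine strand. In all 421 the orientation share equalled the F2R1 share of alternative reads for reference A or C and the F1R2 share for reference G or T, within rounding. Depth at the changes had a median of 33 to 151.5 reads per leukemia, 14 changes had under 20 reads, and the wild-type tail had 8 to 3820 reads (median 45). Alternative reads in the tail occurred at 20 changes. In 2 changes the allele fraction differed from alternative reads over depth by over 0.05. Coordinates are mm10 as deposited, and window sequences came from RefSeq (GRCm38.p6), matched by position to 10 of 412 sites (1 chromosome was left out).

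Leukemias, 1 per mouse, were the replicates. Groups were compared with exact permutation tests over leukemias and paired values with exact sign flips (Python 3.11.15, scipy 1.17.1, numpy 2.4.6, pandas 2.3.3), with Benjamini-Hochberg adjustment over the 5 classes. The tests were tested on simulated data. Class shares and median fractions needed at least 5 changes per leukemia, orientation 3 of each kind and altering shares 5 coding calls of each kind. Protein-altering means missense, stop gained or lost, start lost or essential splice site.

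Named genes followed a rule: the 15 genes with the highest protein-altering allele fractions outside M31 (fraction at least 0.10, depth at least 20; the Smg6 pair counts as 1 gene), the 5 highest of M31 outside tracts, genes hit in at least 2 leukemias, listed genes with a change, stop or splice changes at 0.10 or above, and the 10 highest pairs, of which 1 is not reported here. The changes, lists and rule were chosen with earlier results of these data known. Alternatives were minimum allele fraction and depth, assembled chromosomes only, neighbouring calls counted once, tracts left out, other minimum counts, the median in place of the mean, and leukemias left out.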

Additional observations from a re-analysis of the deposited data

Results flagged for a closer look

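In the bone marrow group, 3 values stood apart from the other 5 leukemias by Dixon's criterion, out of 16 such checks, of which chance flags about 1 in 20. The thymus leukemias were not checked in this way, because their group was larger than the critical values used here covered. M59 had 29 C>A changes, against 2 to 9 in the other bone marrow leukemias. In M58, 66.7% of the changes were T>G, which is 4 of 6 changes: S1217R in Dnah7b (26 of 82 reads), S417R in Dntt (5 of 39), the gene of the DNA polymerase that adds bases at antigen receptor joins, and 2 between genes. M58 also had the highest median allele fraction of the group, at 0.14 (0.1395 before rounding).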

How the results depend on the processing

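Depth limits the calls at low allele fraction: 224 of the 421 changes lie below 0.05, and 263 rest on at most 5 alternative reads. Where an alternative left enough calls and applied to the result, the value was recomputed. Of the 204 values so obtained outside the leave-one-out settings, 168 counted as unchanged. A tested value did so if it kept its direction and its side of the threshold. A pooled share without a test did so if it stayed within its main interval. Where a value changed, the cause was not tested. Differences of class shares, in percentage points, changed sign in several settings, none of them past the threshold in any. Thymus minus bone marrow became -1.46 (T>A) and 14.1 (T>C) with a minimum allele fraction of 0.05, and 9.29 (C>A), -6.73 (C>G) and 15.2 (T>C) at 0.10. For T>C it became 0.844 at a depth of at least 20 reads and 1.26 with neighbouring calls counted once. With the doubled minimum of calls it became -1.44 (T>A), 10.8 (T>C) and 4.71 (T>G), and without M31 and M59, an alternative chosen after seeing the data, 4.83 (C>A). NN minus plain became -0.481 (C>A) and 0.933 (T>C) at an allele fraction of at least 0.05, 1.66 (T>C) without tracts, 0.606 (T>C) without M18, M19 and M22, 0.245 (T>C) and -5.13 (T>G) with the doubled minimum, and -0.909 (C>A) and 3.71 (T>C) without M31 and M59. Leaving out 1 leukemia at a time gave thymus minus bone marrow ranges of -6.61 to 3.50 (C>A), -6.26 to 5.17 (T>C) and -6.13 to 7.20 (T>G), and NN minus plain ranges of -4.05 to 3.24 (T>C) and -5.42 to 2.98 (T>G).

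The difference in number between NN and plain leukemias was -10.9 (exact permutation p = 0.0915) above the fraction limit of 0.10 and -21.0 (p = 0.102) without M18, M19 and M22, and stayed past the threshold with any 1 leukemia left out (-30.4 to -17.1). The share that was not C>T differed by 4.72 points between NN and plain at a fraction of at least 0.10, and by 30.2 to 34.9 with any 1 leukemia left out. Between thymus and bone marrow it became 7.66 at 0.05, 2.33 without M18, M19 and M22 and 1.77 without M31 and M59, with a leave-one-out range of -9.35 to 1.93. The altering share against C>T became -11.4 at 0.05, and passed the threshold with tracts left out (9.08), without M31 and M59 (8.82) and in the leave-one-out range (5.16 to 10.02) without M31. The share of neighbouring changes, set against a C>T share of 0, was 7.38 points at 0.05, 24.4 at 0.10 (n = 3 leukemias), 4.49 at a depth of at least 20 reads and 5.32 without M18, M19 and M22. The orientation difference became 0.00386 with medians in place of means. The C>A share of all changes fell to 27.9% at 0.05 and 26.1% at 0.10, and the share of C>A written on the reference strand was 69.4% at 0.10. Neighbouring calls counted once leaves no share of neighbours to compare. Orientation and altering shares had too few calls at a fraction of 0.10, the median in place of the mean was run for orientation only, and minimum counts were not varied for the numbers of changes, the share that was not C>T or the strand shares.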
